A study of Mus musculus with 12 samples.

Results

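The genes described here are 8 genes known as markers of the Purkinje cell, the output neuron of the cerebellar cortex: Rora, Pcp2, Rgs8, Homer3, Pcp4, Ppp1r17, Dner and Icmt. They were taken by name, through every probe set that the platform annotation assigns to them, which came to 13 of 22690, with none shared with another gene symbol. All 8 were among the 12393 genes with a probe set of their own and among the 7835 that passed a filter on low intensity. The arrays measured whole cerebellum, so that these genes being Purkinje cell genes comes from general knowledge and not from the arrays. Icmt in particular encodes an enzyme that many cell types use.

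The RNA came from the cerebellum of 12 BALB/c mice, with 1 Affymetrix array for each animal. The animals had the genotype Npc1+/+, called wild type here, or Npc1-/-, called null, and were killed on postnatal day 21 (P21) or 49 (P49), which gave 4 groups of 3 animals, each animal a separate replicate. Null mice lack a working copy of the gene for NPC1, a lysosomal membrane protein that exports cholesterol, in every cell of the body, and no group received a treatment beyond standard housing and chow. The labels give 11 animals as female and the first null replicate at P49 as male.

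Purkinje cells carry the only output of the cerebellar cortex. They are large GABAergic neurons that receive excitation from parallel fibres and climbing fibres, and they are the cerebellar cells best known for degenerating in Niemann-Pick type C disease and its mouse models. The 8 genes stand at different points in the biology of the cell. Rora encodes a nuclear receptor that drives Purkinje cell maturation and dendrite growth. Pcp2 and Rgs8 encode regulators of G protein signalling, Homer3 a scaffold that couples metabotropic glutamate receptors to calcium stores, Pcp4 a small calmodulin regulator, and Ppp1r17 the phosphatase inhibitor known as G-substrate. Dner encodes a surface protein with Notch-like repeats that signals to Bergmann glia, and Icmt the methyltransferase that completes the processing of prenylated proteins.

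The promoters are shown because the list holds the gene of a transcription factor, Rora, beside genes that its product may bind. Whether RORα had a part in the levels of these genes was not tested. RORα, the product of Rora, binds the 6 bases AGGTCA preceded by an A/T-rich stretch. The matches marked below are of the 6 bases alone, without regard to that stretch. RefSeq windows of assembly GRCm38.p6 were read over the 250 bases before each annotated start, 5′ to 3′ on the strand of the gene, and 7 of the 8 genes had at least 1 window, 12 in all. Ppp1r17 had none in the table. AGGTCA in either orientation stood in 7 of the 12 windows and in 5 of the 7 genes, Pcp2, Pcp4, Homer3, Dner and Rgs8. Over the whole table it stood in 14.0% of 32851 windows and in 15.8% of 27025 genes. The match is a description of letters and not a binding site, the windows of 1 gene can overlap, and the 7 windows held 6 distinct matches, 2 of them in Pcp2. One window is printed for each of 4 genes, and for Rgs8, whose window lies downstream of other annotated starts of that gene, only 30 bases around the match. Capitals mark AGGTCA or its reverse complement TGACCT.
Pcp2, minus strand, chr8:3625548-3625797: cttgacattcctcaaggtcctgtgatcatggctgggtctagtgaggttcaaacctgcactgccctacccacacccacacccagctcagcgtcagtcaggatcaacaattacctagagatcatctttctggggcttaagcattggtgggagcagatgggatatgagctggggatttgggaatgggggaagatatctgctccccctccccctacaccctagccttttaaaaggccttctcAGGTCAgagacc
Pcp4, plus strand, chr16:96467356-96467605: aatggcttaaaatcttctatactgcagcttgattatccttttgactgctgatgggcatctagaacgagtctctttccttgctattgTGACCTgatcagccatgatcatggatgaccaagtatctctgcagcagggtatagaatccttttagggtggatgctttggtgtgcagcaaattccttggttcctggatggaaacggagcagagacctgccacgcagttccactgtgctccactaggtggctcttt
Homer3, plus strand, chr8:70282749-70282998: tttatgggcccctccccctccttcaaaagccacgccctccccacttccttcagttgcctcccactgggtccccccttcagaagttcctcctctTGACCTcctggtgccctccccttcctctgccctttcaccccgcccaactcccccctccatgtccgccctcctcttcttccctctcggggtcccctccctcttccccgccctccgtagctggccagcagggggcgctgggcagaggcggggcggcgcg
Dner, minus strand, chr1:84696222-84696471: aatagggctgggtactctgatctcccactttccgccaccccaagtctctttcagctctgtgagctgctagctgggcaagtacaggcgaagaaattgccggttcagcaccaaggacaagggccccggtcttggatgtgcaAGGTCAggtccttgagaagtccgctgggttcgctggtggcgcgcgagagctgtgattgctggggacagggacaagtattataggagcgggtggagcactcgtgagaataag
Rgs8, plus strand, chr1:153665525-153665554: aggatgcatgccAGGTCAgctctgcttggg

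The windows of Rora and Icmt held no AGGTCA. The longer letters TAGGTCA, with a T in front, stood in none of the 12 windows and in 2.23% of all windows. CCCNNGGG, the core bound by early B cell factors, also stood in none, against 11.8% of all windows. CAGCTG, an E-box, stood in 1 window of Rgs8, against 13.0%.

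Before the results, the state of the arrays is given. Npc1 itself, with 1 probe set, was at log2 8.25 to 10.12 on the null arrays at P21 against 11.06 to 11.48 in wild type, and at 9.88 to 10.53 against 11.35 to 11.75 at P49, although neither difference passed the adjusted threshold in limma (adjusted p = 0.101 and 0.0591). Whether this probe set lies inside the mutated part of the gene is not known here. Xist, transcribed from the inactive X chromosome, was low for an animal labelled female on 3 arrays, wild-type replicate 2 at P21 (9.28) and null replicates 2 (13.01) and 3 (13.36) at P21, against 15.61 to 15.86 on the other 9. The array labelled male had Xist at 15.63. Eif2s3y, a Y-linked gene, was at 12.72, 9.25 and 12.67 on the 3 arrays with low Xist. It was at 7.93 on the array labelled male and at most 8.91 on the others. Uty and Kdm5d, also Y-linked, were likewise highest on the 3 arrays with low Xist. The sex labels thus conflict with these genes on the array labelled male and on those 3, which fall unequally on the genotypes at P21. The calls for the 8 genes were also computed without these 3 arrays, an alternative chosen after the data were seen; the counts for other lists, for probe sets and for groups apart were not.

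At P21 none of the 8 genes was called different between null and wild type, while at P49 6 of them were called lower in null mice and none higher. The 6 were Icmt, Rgs8, Dner, Pcp2, Ppp1r17 and Pcp4. The median difference over the 8 genes was 0.05 on the log2 scale at P21 and -0.84 at P49, against -0.00 and -0.02 over all 7835 genes. A difference was called where its p-value, adjusted by Benjamini-Hochberg over all genes tested in limma, was below 0.05. By that rule 0.0638% of all genes were called in either direction at P21 and 1.14% were called lower at P49. At P21, 1 of the 8 genes, Rora, had an unadjusted p below 0.05, as did 10.1% of all genes. Without the 3 arrays with low Xist, 7 of the 8 genes were lower at P49 and again none was called at P21. In whole tissue, fewer Purkinje cells and less RNA per Purkinje cell cannot be told apart. Levels are given as log2(intensity + 16) after quantile normalization, in replicate order 1, 2 and 3, and a level is compared only within 1 gene.

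**Figure D1:**
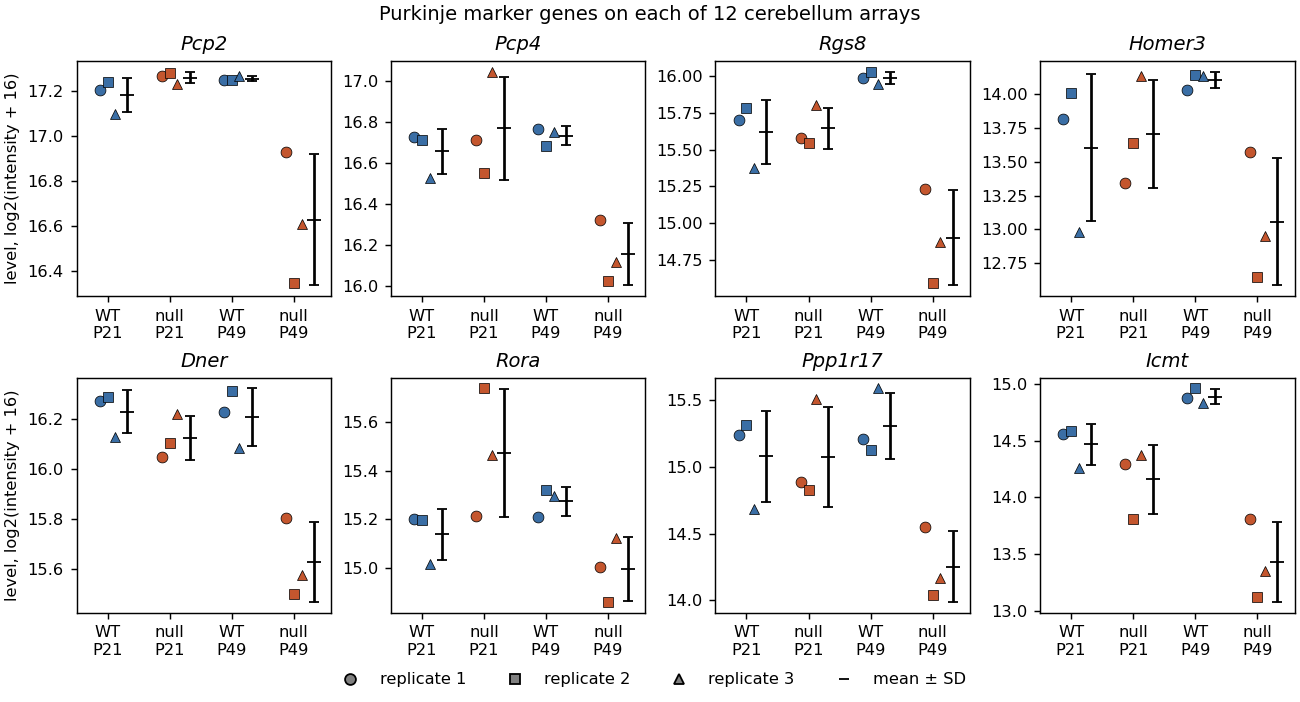
Level of each gene, log2(intensity + 16), on each of the 12 arrays by group (blue, wild type; red, null; marker shape, replicate), with the group mean ± SD of 3 animals beside the points. In every panel all 3 null arrays at P49 lie below all 3 wild-type arrays at P49, and each panel has its own vertical scale.

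Without overlap, the 3 null values at P49 lay below the 3 wild-type values for 8 of 8 genes, an arrangement found for 12.0% of all genes tested. For 5 of the 8 genes, Pcp2, Pcp4, Rgs8, Dner and Ppp1r17, the 3 null values at P49 also lay below all other 9 arrays of the study, as did those of 3.08% of all genes. At P21 the genotypes were apart for 1 gene, Rora, with null higher, while 11.8% of all genes were apart in one or the other direction.

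Rora, the nuclear receptor, had the smallest difference at P49. Its wild-type levels were 15.21, 15.32 and 15.30 and its null levels 15.01, 14.86 and 15.12. The groups were apart by less than the range within the null group, and the difference of -0.28 ± 0.12 (SE; 95% interval -0.53 to -0.02) was not called (adjusted p = 0.377). At P21 wild type was at 15.20, 15.20 and 15.02 and null at 15.21, 15.74 and 15.46. The null arrays were the higher ones at that age, with the lowest of them just above the highest wild-type array. The difference of 0.33 had a 95% interval of 0.08 to 0.59 and was not called in limma either (adjusted p = 0.422). Group means ran from null P49 through wild type P21 and wild type P49 to null P21, where null P49 overlapped wild type P21 and wild type P49 overlapped null P21.

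Pcp2, which binds inhibitory G protein alpha subunits, was at 17.25, 17.25 and 17.27 in wild type at P49 and at 16.93, 16.35 and 16.61 in null. The wild-type arrays were nearly equal, while the null arrays spread over a wider range, all below them. The difference was -0.63 ± 0.11 (SE; adjusted p = 0.00508), which is 1.54-fold lower. At P21 wild type was at 17.21, 17.24 and 17.10 and null at 17.27, 17.28 and 17.23, with overlap. The P21 difference of 0.08 was not called (adjusted p = 0.808). Its size depended on the processing: 0.29 on the values as deposited, 0.34 with median centring and -0.40 with probe sets averaged, none of them called.

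Rgs8, a GTPase-activating protein that shortens G protein signals, was at 15.99, 16.03 and 15.95 in wild type at P49 and at 15.23, 14.59 and 14.87 in null. Every null array lay below the lowest array of the other 3 groups. The difference was -1.09 ± 0.15 (SE; adjusted p = 0.000587), 2.13-fold lower. At P21 the groups lay among each other, with wild type at 15.70, 15.79 and 15.38 and null at 15.58, 15.55 and 15.81, and a difference of 0.02 (adjusted p = 0.964). Wild type P49 had the highest mean and was apart from every other group.

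Homer3, the postsynaptic scaffold, was at 14.03, 14.15 and 14.14 in wild type at P49 and at 13.57, 12.65 and 12.95 in null. The 3 null arrays were below wild type but spread by more than any other gene of the list. The difference of -1.05 ± 0.27 (SE; 95% interval -1.63 to -0.47) missed the threshold (adjusted p = 0.0619) although it was 2.07-fold. It passed under 9 of 24 alternative settings, among them without null replicate 1 at P49 (adjusted p = 0.0199), over a range of adjusted p from 0.00356 to 0.325. At P21 wild type was at 13.82, 14.01 and 12.98 and null at 13.35, 13.64 and 14.14, with no call (difference 0.10, adjusted p = 0.895). Wild-type replicate 3 at P21 was at the level of the null arrays at P49, and no pair of neighbours in the order of group means was apart.

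Pcp4, which binds calmodulin and speeds its exchange of calcium, was at 16.77, 16.68 and 16.75 in wild type at P49 and at 16.32, 16.02 and 16.12 in null. The null arrays were below all 9 others. The difference was -0.58 ± 0.12 (SE; adjusted p = 0.0122), 1.49-fold lower. That call was lost without wild-type replicate 1 (adjusted p = 0.0632) or 3 (0.0524) or without null replicate 2 (0.0864) or 3 (0.0715) at P49. At P21 wild type was at 16.73, 16.71 and 16.53 and null at 16.71, 16.55 and 17.04, again among each other (difference 0.11, adjusted p = 0.718).

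Ppp1r17, the substrate of cGMP-dependent protein kinase that inhibits protein phosphatases, was at 15.21, 15.12 and 15.59 in wild type at P49 and at 14.55, 14.04 and 14.17 in null. The null arrays were the lowest 3 of the 12. The difference was -1.06 ± 0.21 (SE; adjusted p = 0.0108), 2.08-fold lower, and the call was lost without wild-type replicate 3 (adjusted p = 0.0628) or null replicate 2 (0.0779) or 3 (0.0703) at P49. At P21 wild type was at 15.24, 15.31 and 14.69 and null at 14.89, 14.83 and 15.51, with a difference of -0.01 (adjusted p = 0.992).

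Dner, the surface protein, was at 16.23, 16.31 and 16.08 in wild type at P49 and at 15.81, 15.50 and 15.57 in null. No array of another group was as low as the null arrays at P49. The difference was -0.58 ± 0.10 (SE; 95% interval -0.79 to -0.38; adjusted p = 0.00309), and it was called under all 24 alternative settings tried. At P21 wild type was at 16.27, 16.29 and 16.13 and null at 16.05, 16.11 and 16.22. Those groups overlapped (difference -0.10, adjusted p = 0.685).

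Icmt, the methyltransferase, had the lowest difference of the list at P49. It was at 14.88, 14.96 and 14.83 in wild type and at 13.81, 13.12 and 13.35 in null. On the deposited scale the 3 null arrays stood at 47.5%, 29.5% and 34.7% of the wild-type mean intensity. The difference was -1.46 ± 0.18 (SE; 95% interval -1.84 to -1.09; adjusted p = 0.000258), 2.75-fold lower, and it was called under all 24 alternatives. At P21 it was the only gene besides Dner and Ppp1r17 with a lower mean in null mice, with wild type at 14.56, 14.59 and 14.26 and null at 14.30, 13.81 and 14.37. That difference of -0.31 (95% interval -0.69 to 0.07) was not called (adjusted p = 0.541), and null replicate 2 at P21 reached the level of the highest null array at P49.

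**Figure D2:**
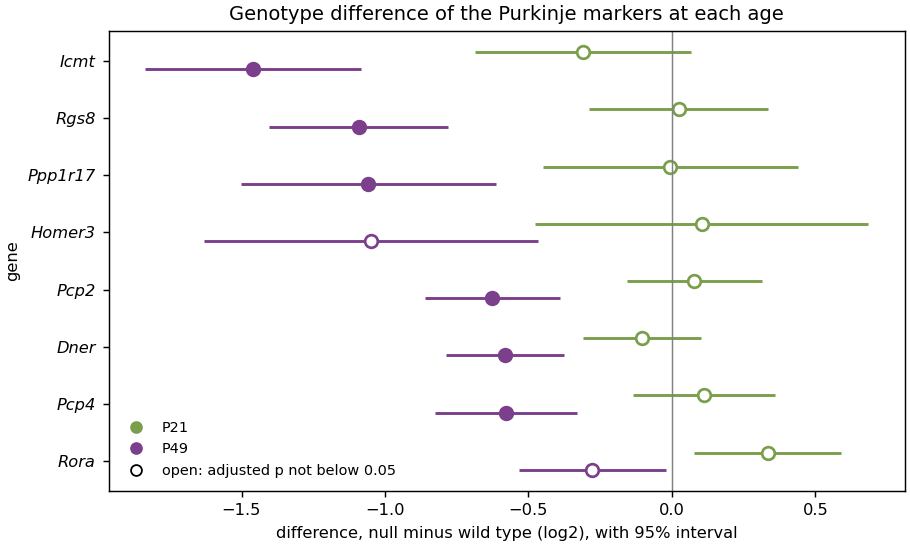
Difference between null and wild type (log2, null minus wild type) for each gene at P21 (green) and P49 (purple), with its 95% interval from the limma fit; filled points have an adjusted p below 0.05. All 8 points at P49 lie left of 0, from -1.46 for Icmt to -0.28 for Rora, and all points at P21 are open.

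The 3 null animals at P49 did not differ from wild type by the same amount. On the deposited scale Rgs8 stood at 57.4%, 36.7% and 45.0% of the wild-type mean intensity and Ppp1r17 at 57.5%, 40.6% and 44.2%. Pcp2 stood at 74.2%, 52.4% and 64.9%, and Rora at 81.9%, 73.8% and 89.1%. Among these 4 genes replicate 1 was the closest to wild type except in Rora, where replicate 3 was, and replicate 2 was the farthest. On the normalized scale replicate 2 was the lowest null array at P49 for 8 of 8 genes and replicate 1 the highest for 7 of 8, all but Rora. The shares of all genes with these replicates lowest or highest were not counted. The median over the 8 genes of the difference from the wild-type mean at P49 was -0.47 in replicate 1, -1.09 in replicate 2 and -0.88 in replicate 3. Each animal had 1 array, so the 8 genes are not independent readings of an animal.

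The genes also had a common low array among the wild-type animals at P21. Replicate 3 was the lowest of that group for 8 of 8 genes, with a median of -0.17 against 0.08 and 0.09 in replicates 1 and 2. The share of all genes that were lowest on replicate 3 was not counted. On that array 6 brainstem and deep nuclear neuron genes, of which 2 passed the filter, had a summed deposited intensity of 29717. The sum was 15923 and 17126 on the other 2, and the median of the myelin list on replicate 3 was 0.20. The low array was not particular to the 8 genes. On it a list of other Purkinje genes had a median of -0.15 and granule neuron genes -0.08, while microglial genes had 0.22. The part of these values in the low levels was not tested. Among the wild-type arrays at P49 the medians were -0.01, 0.04 and 0.01.

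Several probe sets read 3 of the genes, and 5 genes had 1 each. All 13 probe sets were lower on every null array than on every wild-type array at P49, as were 11.7% of the 13576 probe sets that passed the filter. In a fit with 1 row per probe set, 8 of the 13 were called lower at P49, against 0.825% of all probe sets. For Pcp2, 1419085_at, which represents the gene above, differed by -0.63 (adjusted p = 0.00649) and 1419084_a_at by -0.76 (adjusted p = 0.0401). The Pcp2 probe set 1424944_at differed by -1.56 and was not called (adjusted p = 0.726). Its values in null mice at P49 were 10.14, 9.02 and 9.54, around the filter at 9.93, and null replicate 2 at P21 was at 5.57 while the other 2 null arrays at P21 were at 11.54 and 10.66. At P21 the differences of 1419084_a_at and 1424944_at were 0.39 and -1.67, not called in the probe set fit (adjusted p = 0.506 and 0.578). With the probe sets of each gene averaged, in place of the brightest one, Pcp2 was not called at P49 (adjusted p = 0.268).

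For Dner both probe sets were called, 1423671_at at -0.58 (adjusted p = 0.00390) and 1456379_x_at at -0.73 (adjusted p = 0.0344). Within the second, null replicate 3 and not 2 was the lowest array. The 3 Rora probe sets all had lower values in null mice at P49, by -0.28 for 1424034_at, -0.32 for 1420583_a_at and -0.68 for 1424035_at, and none was called (adjusted p = 0.428, 0.573 and 0.166). Whether the probe sets of 1 gene read different transcripts is not known here.

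**Figure D3:**
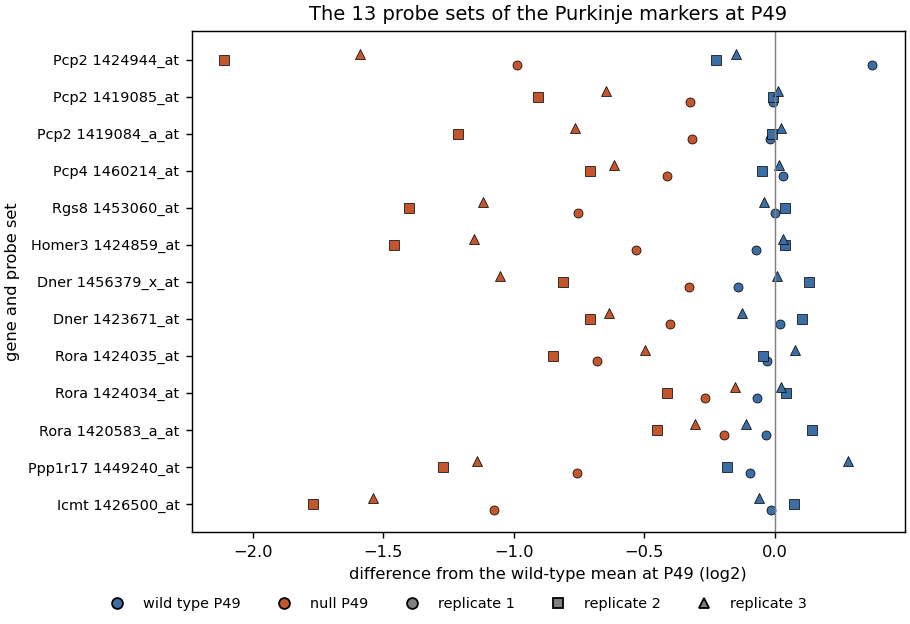
Values of the 13 probe sets of the 8 genes at P49, each as its difference (log2) from the mean of the 3 wild-type arrays (blue, wild type; red, null; marker shape, replicate). In every row all 3 null arrays lie to the left of all 3 wild-type arrays, and null replicate 1 is the nearest to wild type in most rows.

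The difference between genotypes at P49 was next set against that at P21. All 8 interaction values, the log2 difference at P49 minus that at P21, were negative, from -1.15 for Homer3 and Icmt to -0.48 for Dner, with a median of -0.88 against -0.00 over all genes. In the limma fit 1 of the 8, Rgs8 at -1.11 ± 0.21 (SE; adjusted p = 0.0242), passed the threshold in this direction, against 0.204% of all genes. The others had adjusted p = 0.0619 for Icmt, 0.0722 for Pcp2 and 0.0940 for Pcp4, and 0.205 to 0.369 for the other 4. The Rgs8 call was lost under 10 of 23 alternatives, with adjusted p between 0.00425 and 0.0976. Those 10 included leaving out wild-type replicate 1 (0.0578) or 3 (0.0804) or null replicate 3 (0.0612) at P21, any single wild-type array at P49 (0.0823, 0.0976 and 0.0708), or null replicate 2 (0.0659) or 3 (0.0902) at P49. Without the 3 arrays with low Xist the only gene called was Icmt (adjusted p = 0.0418), and Rgs8 was not (0.0620).

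In wild-type mice none of the 8 genes was called between P21 and P49, and 2, Rgs8 and Icmt, had an unadjusted p below 0.05. Of all genes 0.702% were called in either direction and 9.99% had an unadjusted p below 0.05. The differences of P49 from P21 were 0.50 for Homer3, 0.42 for Icmt, 0.37 for Rgs8, 0.23 for Ppp1r17, 0.14 for Rora, 0.08 for Pcp4, 0.07 for Pcp2 and -0.02 for Dner. For 5 genes, Rgs8, Icmt, Homer3, Rora and Pcp2, all 3 wild-type arrays at P49 lay above all 3 at P21, as they did for 10.4% of all genes. Wild-type P49 had the highest group mean for 4 of the 8 genes, Rgs8, Homer3, Ppp1r17 and Icmt. The share of all genes with that group highest was not counted, so nothing is read from this number.

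In null mice 7 of the 8 genes fell between P21 and P49, all but Homer3, and 3.45% of all genes were called lower. The largest falls were those of Ppp1r17 (-0.82, adjusted p = 0.0321), Rgs8 (-0.75, adjusted p = 0.00814) and Icmt (-0.73, adjusted p = 0.0265). Pcp2 fell by 0.63 (adjusted p = 0.00441), Pcp4 by 0.61 (adjusted p = 0.00675), Dner by 0.50 (adjusted p = 0.00743) and Rora by 0.47 (adjusted p = 0.0320). The difference for Homer3 was -0.65 (adjusted p = 0.189). For 6 genes, all but Homer3 and Icmt, the null arrays at P49 lay below all null arrays at P21, as they did for 12.0% of all genes. This comparison, the genotype comparison at P49 and the interaction share the same 3 null arrays at P49. The count of 7 went to 3 without null replicate 2 at P49, to 4 without null replicate 3 at P49, to 4 without the 3 arrays with low Xist and to 0 when the fit held the 6 null arrays alone. Calls over all genes under these settings are not given here.

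The order of the group means placed null P49 lowest for 8 of 8 genes. How many of all genes had null P49 lowest was not counted. Null P49 was apart from the next group in that order for Pcp2, Pcp4, Rgs8, Dner and Ppp1r17 and overlapped it for Homer3, Rora and Icmt. Among the other 3 groups, neighbours in the order were apart for Pcp2 and Rora, where wild type P21 lay below wild type P49, and for Rgs8 and Icmt, where wild type P49 lay above its neighbour. All other neighbours overlapped. Homer3 was apart only between groups that are not neighbours in its order, with wild type P49 above wild type P21, and Rora also had null P21 apart above wild type P21.

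Beyond the 8 genes, 37 other genes known from Purkinje cells were listed, of which 30 had a probe set and 27 were tested. Of these 27, 13 were called lower at P49, against 1.14% of all genes, and none higher, with a median of -0.44. None was called at P21, where the median was 0.09. The 4 with the smallest p at P49 were Itpka, an inositol trisphosphate kinase (-1.60, adjusted p = 0.00122), Cacna1g, a T-type calcium channel (-1.05, adjusted p = 0.00206), Calb1, the calcium buffer calbindin (-0.92, adjusted p = 0.00254), and Ebf2, a transcription factor (-1.16, adjusted p = 0.00372). The null mean of Ebf2 at P49 was 9.60, below the filter, so the size of its difference is uncertain. Other genes of that list had no call at P49, and Aldoc and Gad1 were chosen here after their values were seen. Aldoc, an enzyme known from zebrin-positive Purkinje cells, differed by 0.03 (adjusted p = 0.952), and Gad1, the GABA-synthesising enzyme, by -0.21 (adjusted p = 0.336). Arrays of whole cerebellum do not show which cells gave these levels. Between P21 and P49 in null mice 12 of the 27 were called lower, against 3.45% of all genes. In the interaction 3 were called lower, against 0.204%.

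Genes known to depend on RORα in Purkinje cells formed a list of 9, of which 5 were tested. All 5 were called lower at P49, against 1.14% of all genes, with a median of -0.83. The list is not separate from those above, since Pcp2 and Pcp4 are among the 8 genes and Cacna1g, Calb1 and Slc1a6 stand in the other Purkinje list. Rora itself was not called at P49, as given above.

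The partners and relatives of the 8 gene products were read from lists made for each. They comprised inhibitory G protein subunits, a guide of these and a calcium channel gene for Pcp2 (6 tested). For Pcp4 they were calmodulin-binding proteins and calmodulin-dependent kinases (4, with no calmodulin gene among them). Other RGS proteins and G protein subunits were read for Rgs8 (7), and glutamate receptor scaffolds for Homer3 (4). Notch pathway genes and a receptor phosphatase gene were read for Dner (9), and coregulators and clock genes for Rora (5). The last lists held phosphatase and cGMP genes for Ppp1r17 (10) and prenylation genes for Icmt (12). Some of these genes also stand in the other Purkinje list. None of these genes was called at P49 in either direction in limma. Counted once each, 57 genes were tested, and 7 of them (12.3%) had an unadjusted p below 0.05, against 11.3% of all genes. The smallest adjusted p at P49 among them were those of Rgs2 (0.59, adjusted p = 0.0916), Ppp1r1a (0.58, adjusted p = 0.108), Rgs17 (0.54, adjusted p = 0.119) and Gnai1 (-0.28, adjusted p = 0.138). Rce1, the protease that acts just before Icmt on prenylated proteins, differed by 0.51 (adjusted p = 0.264). Among close relatives of the members, Pcp4l1 differed by 0.05 (adjusted p = 0.965), Homer1 by -0.51 (adjusted p = 0.544) and Homer2 by 0.04 (adjusted p = 0.983). Rorb was below the filter.

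The members were then set beside markers of the other cells a cerebellar sample holds. Granule neurons, the most numerous neurons of the cerebellum, had 0 of 10 tested genes called at P49 in limma, 0 with an unadjusted p below 0.05, and a median of 0.01. Their summed deposited intensity was 517314 to 554743 in null mice and 547424 to 578672 in wild type. For the 8 Purkinje genes the sums were 277793 to 370996 and 533108 to 538843. Interneuron markers had 0 of 4 called, with 0 at an unadjusted p below 0.05, and myelin genes 0 of 8, with 2 at an unadjusted p below 0.05 and a median of -0.08.

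Microglial genes went the other way on the same arrays. Of 10 tested, 9 were higher at P49, with a median of 2.63. Tyrobp, an adaptor of innate receptors, had the smallest p (3.55 on the log2 scale). Summed intensities took in all 13 microglial genes with a probe set, also those below the filter. The sum was 147427 to 187504 in null mice against 31434 to 33000 in wild type at P49, and 50966 to 59728 against 30826 to 39023 at P21. Of 14 astrocyte and Bergmann glia genes, 2 were higher at P49, Gfap (3.30) and Aqp4 (0.94), and 7 had an unadjusted p below 0.05, in both directions. No choroid plexus or meningeal gene of 9 tested was called at P49, with 4 at an unadjusted p below 0.05. Over the 10 listed genes with a probe set, the sum at P49 was 281566 to 438077 in null against 178961 to 189139 in wild type. At P21 it ran from 92569 to 433727 in null and from 129946 to 341385 in wild type, so it varied widely between animals of 1 group. Of the 2 brainstem and nuclear neuron genes tested, Nefh, a neurofilament subunit that large neurons including Purkinje cells carry, was lower (-0.84, adjusted p = 0.0147). No endothelial gene of 6 was called, with 1 at an unadjusted p below 0.05. The part of these other cells in the lower Purkinje levels was not tested.

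**Figure D4:**
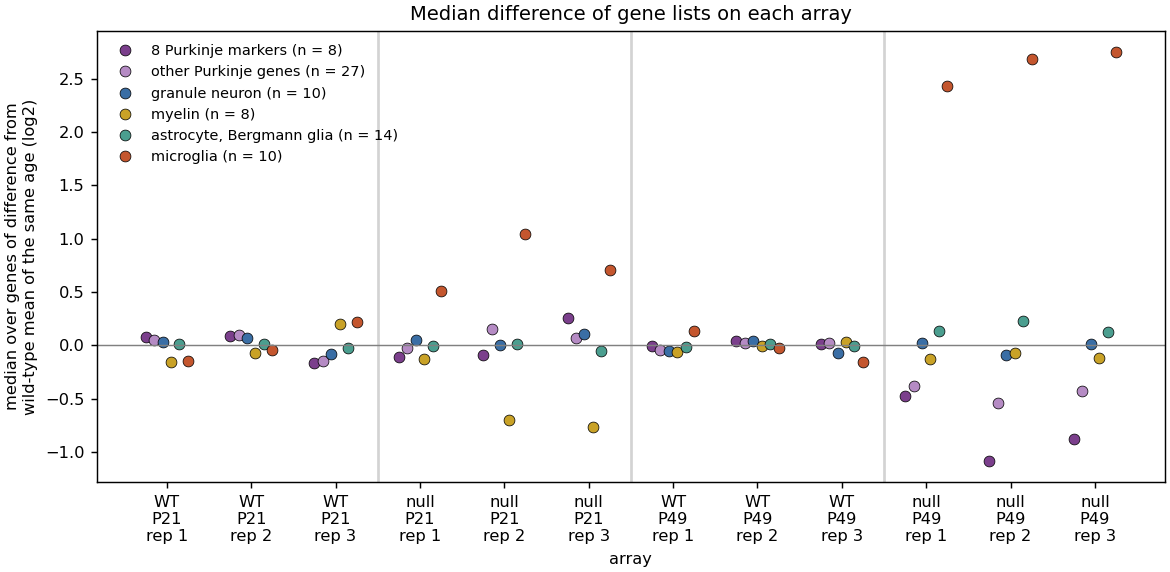
Median over each gene list of the log2 difference from the wild-type mean of the same age, on each of the 12 arrays; n is the number of genes tested in the list. On the 3 null arrays at P49 the 8 genes lie at -0.47, -1.09 and -0.88 and the granule neuron list at 0.02, -0.09 and 0.01, while the microglial list lies at 2.43, 2.69 and 2.75.

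Across the 12 arrays, the genes whose pattern was most like the median of the 8 were found by the root mean square of the log2 difference after centring each gene on its own mean. The 10 nearest genes outside the list were Inpp5a (0.09), Erg28 (0.09), Calb1 (0.10), Lhx5 (0.13), Kcnab1 (0.13), Casq2 (0.14), Rmdn3 (0.14), Washc2 (0.14), Rasl11b (0.15) and Ptprm (0.15). Of these Inpp5a, Calb1 and Lhx5 were in the other Purkinje list. Among all tested genes, members included, Pcp2 ranked 4, Rgs8 5, Pcp4 6, Dner 7, Ppp1r17 28, Homer3 123, Rora 341 and Icmt 406 in closeness to that median. The median is formed from the members themselves, so their closeness to it is partly built in. Icmt and Rora were thus the members least like the rest, on opposite sides, Icmt with a larger and Rora with a smaller difference at P49.

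Against each member alone, the 2 genes nearest to each member over the 12 arrays were Ptprm and Inpp5a for Pcp2, Cyp27a1 and Inpp5a for Pcp4, Calb1 and Kcnab1 for Rgs8, and Rgs8 and Stk17b for Homer3. They were Mrrf and Apip for Dner, Egfr and Cd47 for Rora, Rgs8 and Calb1 for Ppp1r17, and Kitl and Rgs8 for Icmt. Rgs8 was thereby among the nearest genes of 3 other members.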

How the data were processed

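Gene expression was measured in 12 cerebella, 3 animals in each of 4 groups given by the genotype and time point labels; 1 protocol text gives P21 as the age for all animals, and the time point labels were used. The authors deposited 1 linear intensity per probe set and array; the algorithm that summarised the probes is not given in the sources used here. Every array had the same mean, 5002, once 2% was trimmed at each end, while log2 medians ranged from 10.65 to 10.92. Intensities were put on a scale of log2(value + 16), which understates differences of dim genes, and quantile normalized. Each gene was represented by its brightest probe set with a single symbol (20380 probe sets; 691 had several and 1555 none), and kept above the 40th percentile, an intensity of 959; symbols were updated by Entrez identifier through RefSeq GRCm38.p6, used for names and promoters. Contrasts of 4 group means were tested over all 12 arrays in limma 3.58.1 (R 4.3.3) with eBayes and a mean-variance trend, two-sided, adjusted over 7835 genes. The fit was tested on simulated data. The number of arrays limits the precision. The members, lists, tests and motifs were chosen with earlier results of these data known. Named genes are all members with every probe set, up to 4 genes of each list by smallest p at P49, close relatives, the 10 genes most like the median of the members and the 2 most like each member; others are said to be chosen after seeing their values. Alternatives were other scalings, pseudocounts (1 and 64), filters, probe set rules, fits and arrays left out.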

Additional observations from a re-analysis of the deposited data

Results flagged for a closer look

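One result met a rule for a closer look, because a test of the difference itself found that the genotype difference was not the same at the 2 ages. For Rgs8 the interaction in limma was -1.11 on the log2 scale (adjusted p = 0.0242): the genotype difference was 0.02 at P21 and -1.09 at P49. The value was negative under all 23 alternatives, from -1.36 to -0.96, and it passed the threshold under 13 of them.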

How the results depend on the processing

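The direction of all 8 differences at P49 was kept under 24 of 24 alternatives, and Icmt, Rgs8 and Dner were called under each of them, with adjusted p up to 0.00347, 0.00626 and 0.0278. The number of genes called lower at P49 (6) lay between 4 and 8, with 4 without wild-type replicate 3 or null replicate 2 or 3 at P49 and 8 with array weights. The 1 interaction call became 3 on the values as deposited, 5 with median centring, 5 with array weights and 0 without the mean-variance trend, and 0 to 3 with any 1 array left out. Median centring moved the median of all genes in the interaction to -0.10 and between ages in null mice to -0.13. The 7 calls between ages in null mice became 0 in a fit of the null arrays alone, 4 without the 3 arrays with low Xist, and 3 to 7 with any 1 array left out. For the interaction and the ages in null mice, calls over all genes under these alternatives are not given here. Those changes in count are therefore not read as particular to the 8 genes. No gene was called at P21 or between ages in wild type under any alternative. With the replicate block the counts were 6, 1 and 7, as without it. The labels name nothing that same-numbered animals share, so whether replicate numbers pair them is not known. Same-numbered deviations correlated between -0.175 and 0.189. Without values for differently numbered arrays beside them, these cannot decide the question. Probe signals near the filter at 9.93 limit what can be read from the dimmest Pcp2 probe set and from Ebf2. Causes of these changes were not tested.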
